A study of Rattus norvegicus with 6 samples.

Results

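Mitochondrial carriers are the proteins of the Slc25 family, which move metabolites, nucleotides, cofactors and protons across the inner mitochondrial membrane. The genes described here are all those whose array probe carries a RefSeq transcript of a rat gene with a symbol beginning Slc25a, together with the uncoupling protein genes Ucp1, Ucp2 and Ucp3. There were 39 such genes among 13903 genes named on the array, each read by 1 probe printed in 1 spot, so no second probe or spot backs any value. Of these, 34 were tested between adult islets and islets of rats aged 10 days (P10). Slc25a12 and Slc25a13, the aspartate-glutamate carriers, matched no probe by this rule and were not analysed here.

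Pancreatic islets are clusters of hormone-secreting cells, most of them insulin-secreting beta cells in the rat. The adult group held 3 samples of collagenase-isolated islets, each from an adult male rat, and the P10 group 3 samples, each pooled from several young rats, with no treatment or genetic change named for either. Total RNA was labelled with Cy3 and hybridised to Agilent arrays, 1 sample per array. The labels used here name no strain, adult age, sex of the P10 rats or number of rats per pool. The series was designed to describe how coding and long non-coding transcripts change as islets mature after birth.

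Beta cells couple glucose to insulin release through their mitochondria. Pyruvate made from glucose is oxidised, ADP enters in exchange for ATP, and phosphate enters together with protons. Citrate, malate and oxoglutarate leave through carriers to feed cytosolic reactions. Uncoupling proteins and some relatives dissipate or modulate the proton gradient, while other carriers bring in carnitine esters, amino acids, iron and coenzymes.

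Levels are log2 processed signal minus the 75th percentile of the same array, and they compare arrays at one probe, not one probe with another. A change is the adult mean less the P10 mean on this log2 scale, given with its standard error (SE). Adult arrays 2 and 3, and P10 arrays 1 and 2, differed little beyond the spread between spots of one array and were averaged and counted as 1 sample each, giving n = 2 per stage. The ratio of observed to predicted variance was 1.19 and 0.91 for those pairs, 0.91 and 1.30 for the other P10 pairs, and 16.5 and 18.9 for adult array 1 against the other adult arrays, which lay on another slide. The adult spread is therefore the gap between slides, and slide and rat cannot be told apart. A gene was called when limma's adjusted p over all 18355 tested probes was below 0.05. Each array had 17823 to 18725 of the 24684 probes well above background and 0 saturated spots. The number of arrays limits the precision. Beyond the ratio of 1.30 for P10 arrays 1 and 3, little shows that the counted P10 samples differ by more than technical spread.

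Carrier genes moved in both directions and about as often as other genes. Of the 34 tested, 8 were called higher in adults, 10 lower and 16 did not pass the test. The called share was 52.9%, against 52.4% of all probes tested. By direction 23.5% of the carriers were higher and 29.4% lower, against 21.3% and 31% of all probes. Taking the brightest probe of each named gene, the shares over 11402 genes were 23.7% higher, 28.8% lower and 52.5% in either direction. The median change was -0.14 over the carriers and -0.23 over all probes. In 28 of 34 carriers (82.4%) the adult and P10 arrays did not overlap, 12 with adults above and 16 with adults below. Over probes measured on all 6 arrays the share was 77.8%, with 31.9% above and 45.9% below. With quantile normalization, which moves the median of all probes to -0.02, 9 carriers were higher and 8 lower, and with median scaling 9 and 6, from the same 34. Over all probes quantile normalization called 28.4% higher, 28.7% lower and 57.2% in either direction, and median scaling called 5087 probes higher and 4638 lower, against 3912 and 5699 with the 75th percentile. Without P10 array 3 only Slc25a10, Slc25a27, Slc25a30 and Slc25a34 remained called, and P10 was then a single counted sample.

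**Figure D1:**
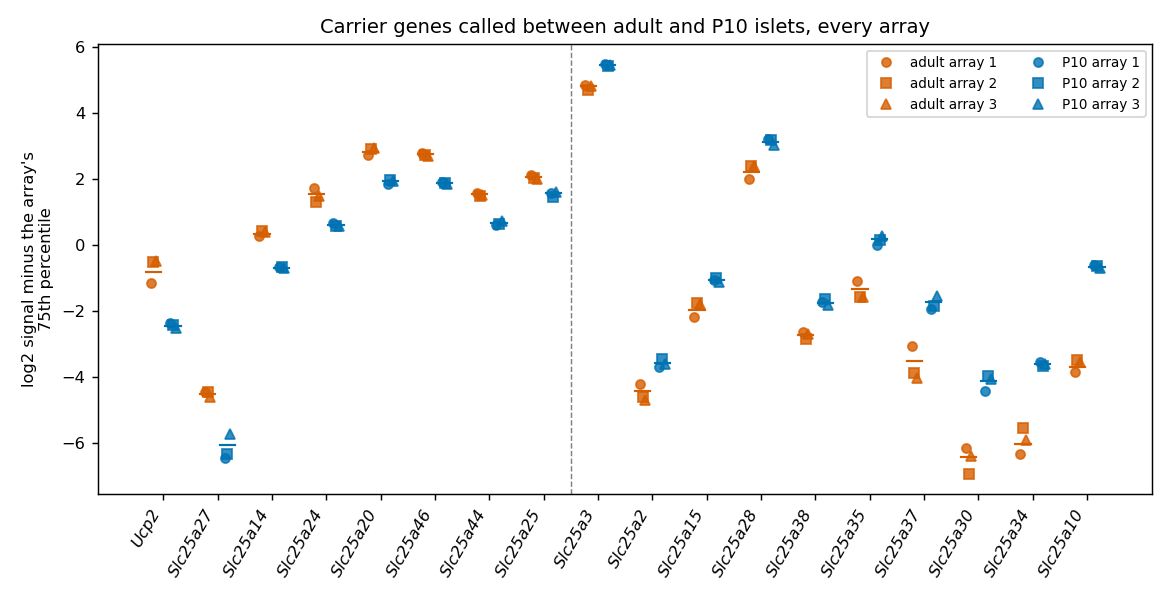
Log2 signal minus the array's 75th percentile for the 18 called carrier genes, with adult arrays in orange, P10 arrays in blue, symbols for array numbers and a bar at the mean of the counted samples of a stage. To the left of the dashed line stand the 8 genes higher in adults and to the right the 10 lower ones. In each of these genes the adult and P10 arrays do not overlap, as in 77.8% of tested probes measured on every array.

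Promoters of the steepest riser, the steepest faller and the carnitine carrier gene that rose show the sequence context of these genes. They run from 250 bases before to 50 after the annotated start, from RefSeq on GRCr8, written 5′ to 3′ on the gene's strand. Capitals mark the Sp1-type GC box GGGCGG and the GABP-type ETS motif CCGGAAGT, each searched on both strands.
Ucp2, chr1:164251123-164251422, plus strand: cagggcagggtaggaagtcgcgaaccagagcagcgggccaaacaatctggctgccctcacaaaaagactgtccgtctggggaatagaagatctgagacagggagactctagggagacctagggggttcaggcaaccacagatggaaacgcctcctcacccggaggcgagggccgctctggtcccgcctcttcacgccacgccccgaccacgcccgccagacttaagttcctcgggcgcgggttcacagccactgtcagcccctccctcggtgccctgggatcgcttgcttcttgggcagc
Slc25a10, chr10:106264146-106264445, plus strand: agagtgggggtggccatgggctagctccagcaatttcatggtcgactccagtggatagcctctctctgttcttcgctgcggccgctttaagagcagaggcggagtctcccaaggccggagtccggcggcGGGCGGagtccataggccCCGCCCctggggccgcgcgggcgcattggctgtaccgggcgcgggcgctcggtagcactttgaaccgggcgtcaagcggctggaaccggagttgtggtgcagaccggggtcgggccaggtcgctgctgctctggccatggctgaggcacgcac
Slc25a20, chr8:118243323-118243622, plus strand: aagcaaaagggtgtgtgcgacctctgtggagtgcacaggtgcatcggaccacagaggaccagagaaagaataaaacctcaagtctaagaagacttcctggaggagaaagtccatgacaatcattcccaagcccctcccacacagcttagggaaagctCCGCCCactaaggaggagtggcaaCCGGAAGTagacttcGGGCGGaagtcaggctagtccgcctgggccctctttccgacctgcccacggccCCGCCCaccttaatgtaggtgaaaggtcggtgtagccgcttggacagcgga

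The promoter table held 35 of the 39 carriers. The GC box occurred in 23 of these (65.7%), against 34.9% of 27457 promoters of the same length. It was found in 5 of 7 promoters of genes called higher, 5 of 8 of genes called lower and 12 of 15 of genes not called, and it was not in the Ucp2 window. The median GC content was 56.7%, 60.5% and 61% in these sets and 52.3% over all promoters. The ETS motif occurred in 3 of the 35 (8.57%), against 4.01% of all promoters, and Slc25a20 was the only holder among genes called in either direction. The palindromic NRF1 motif, of a factor known to drive nuclear genes of mitochondria, occurred in 1 of the 35, Slc25a51, against 4.71% of all promoters. No carrier window held the motif TCAAGGTCA of the oestrogen-related receptors, which was in 0.412% of all promoters. The motifs do not overlap in letters. These are matches of letters and no measure of binding.

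Uncoupling proteins and their relatives held the steepest rises. Of 6 genes 4 were tested, 3 being higher and 1 lower in adults, where 21.3% and 31% of all probes were. Ucp2, the broadly expressed uncoupling protein long studied in beta cells for its effect on insulin secretion, stood at -1.14, -0.51 and -0.48 on adult arrays 1 to 3 and at -2.37, -2.41 and -2.50 on the P10 arrays. All adult arrays lay above all P10 arrays, with array 1 the lowest of the adults. The means were -0.82 ± 0.46 (SD, n = 2) and -2.45 ± 0.08 (SD, n = 2), a rise of 1.63 (SE 0.27, limma adjusted p = 0.0127) or 3.10-fold. On slide 1, which held adult array 1 and all P10 arrays, the rise was 1.31. Leukocyte markers, from cells that also express Ucp2, moved the same way. All 10 tested of 11 were higher in adults. The summed linear signal of the list, relative to the 75th percentile, was 20.1 to 26.1 on adult and 5.18 to 7.44 on P10 arrays. These sums hold the untested Tyrobp, except on adult array 2 and P10 array 2, where its spot was left out. Cd79b and Itgam were not well above background at P10. Of 7 tested beta cell markers 4 were higher and 1 lower in adults. The part of leukocytes or of beta cells in the Ucp2 result was not tested. In islets as whole tissue, more cells of a type and more RNA per cell cannot be told apart.

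Slc25a27 and Slc25a14, relatives of the uncoupling proteins best known from brain, rose as well. Slc25a27 stood at -4.46, -4.45 and -4.61 in adults and at -6.46, -6.33 and -5.72 at P10, where only 1 of 3 arrays was well above background, so the size of its rise of 1.56 (SE 0.27, limma adjusted p = 0.0151) is uncertain. With quantile normalization it was 2.22, and with normexp 0.01 (limma adjusted p = 0.968). Slc25a14 stood at 0.27, 0.42 and 0.39 in adults and at -0.68, -0.67 and -0.69 at P10. It rose by 1.02 (SE 0.14, limma adjusted p = 0.0081). Both genes had adult arrays close together and clear of the P10 arrays.

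Slc25a30, a relative best known from kidney, went the other way. Its adult arrays stood at -6.15, -6.92 and -6.39 and its P10 arrays at -4.42, -3.97 and -4.05, a change of -2.28 (SE 0.23, limma adjusted p = 0.00416), or 4.86-fold lower. With normexp background correction, which lifts dim signals, it was -1.24 (limma adjusted p = 0.0618). Ucp1, the thermogenic protein of brown fat, and Ucp3, the form of skeletal muscle, had no array on which they were well above background. Ucp1 signals lay between -9.65 and -9.31 in adults and between -8.67 and -7.12 at P10, and Ucp3 signals between -8.76 and -7.79 and between -8.70 and -7.37, none of which is a measured level. Ucp3 lies next to Ucp2 in the gene order, with 0 protein-coding genes between them, and only Ucp2 was measured.

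The carriers that supply ATP synthesis differed among themselves, and their calls depended on scaling. Slc25a3, the phosphate carrier, stood at 4.85, 4.69 and 4.81 in adults and at 5.46, 5.41 and 5.43 at P10. The stages did not overlap, and the change of -0.63 (SE 0.13, limma adjusted p = 0.023) was called, but with quantile normalization it was -0.06 (limma adjusted p = 0.719). Slc25a5, the adenine nucleotide translocator of dividing cells and many tissues, stood at 4.33, 3.77 and 3.90 against 4.84, 4.80 and 4.82. Its change of -0.74 (SE 0.22, limma adjusted p = 0.0533) missed the threshold. It was -0.41 with quantile normalization (limma adjusted p = 0.196). Slc25a5 was called with only probes well above background on all 6 arrays and without adult array 2. It was also called with the replicate number as a block, a fit that counts every array as a sample and pairs arrays by number. The gene table lists 9 pseudogenes of Slc25a5, whose transcripts the probe might not separate. Dividing-cell markers were lower in adults as well, 6 of 7 tested being called lower, where 31% of all probes were. Their summed signal was 2.28 to 3.64 on adult and 7.78 to 8.26 on P10 arrays, and their part was not tested. Slc25a4, the translocator of heart and muscle, stood higher in adults, at 4.54, 4.17 and 4.16 against 3.74, 3.89 and 3.86. The difference of 0.51 (SE 0.18, limma adjusted p = 0.0846) was not called, and with quantile normalization it was 0.77 (limma adjusted p = 0.0415) and was. On slide 1 it was 0.70. Slc25a4 and Slc25a5 thus had differences of opposite sign, neither of them called with the main scaling.

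**Figure D2:**
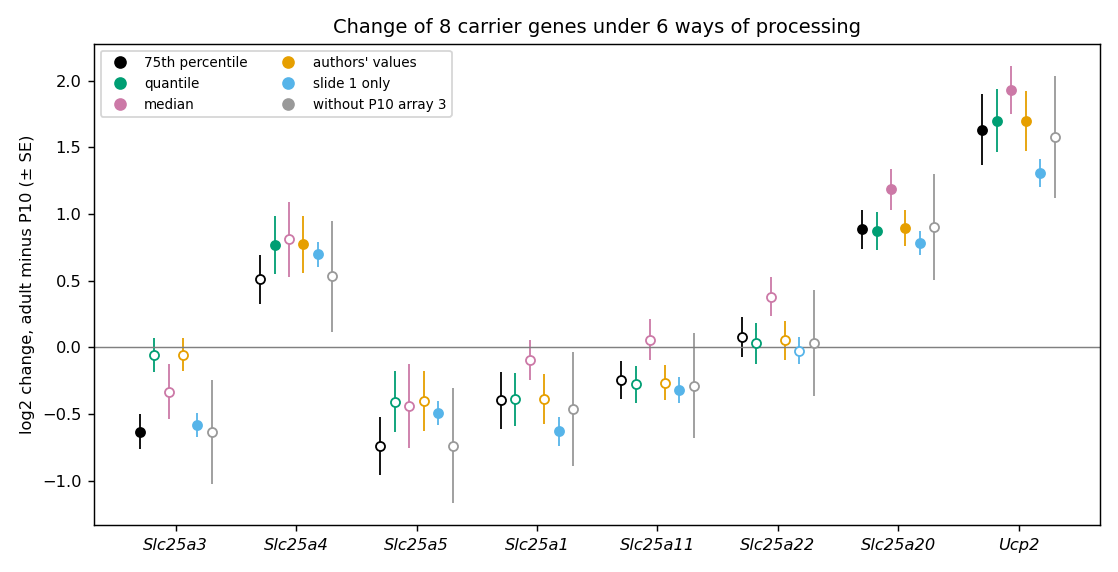
Log2 change, adult minus P10, with its SE for 8 carrier genes under 6 ways of processing, filled where limma's adjusted p was below 0.05. Slc25a3 lies below 0 under each and is called with the 75th percentile over all arrays and on slide 1, Slc25a4 is higher and called with quantile normalization, with the authors' values and on slide 1, and Ucp2 is higher under each, though not called without P10 array 3.

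Among the calcium-regulated carriers of ATP-Mg and phosphate, which set the nucleotide pool of the matrix, Slc25a24 stood at 1.71, 1.31 and 1.49 in adults and at 0.66, 0.58 and 0.57 at P10. It rose by 0.96 (SE 0.17, limma adjusted p = 0.0156). Slc25a25 rose by 0.50 (SE 0.14, limma adjusted p = 0.0446), close to the threshold, and was not called without P10 array 2. With normexp neither was called, Slc25a24 at 0.79 (limma adjusted p = 0.0547) and Slc25a25 at 0.54 (limma adjusted p = 0.0812). Slc25a23 stood at 0.20 (limma adjusted p = 0.541), with adult array 2 at 1.59 and the other adult arrays at 0.52 and 0.71, so that the stages overlapped. Slc25a41, beside Slc25a23 in the genome, and Slc25a54, beside Slc25a24, had no well-measured array in either stage.

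Of 4 di- and tricarboxylate carriers 1 was called (52.4% of all probes were), and it had the steepest fall of all carriers. Slc25a10, which exchanges malate or succinate for phosphate, stood at -3.83, -3.49 and -3.55 in adults and at -0.59, -0.64 and -0.69 at P10. The gap between the stages was many times the spread within either. The means were -3.68 ± 0.22 (SD, n = 2) and -0.65 ± 0.05 (SD, n = 2), a change of -3.02 (SE 0.17, limma adjusted p = 0.00171), or 8.14-fold lower in adults, and on slide 1 it was -3.18. Enterocyte markers fell on the same arrays. All 11 tested of 13 listed were lower in adults, with a summed signal of 9.98 to 10.7 on adult and 242 to 255 on P10 arrays, and Apoa4 was not well above background on any adult array. Acinar markers gave 0 higher and 7 lower of 9, with sums of 411 to 611 and of 1287 to 1364, and with quantile normalization 1 higher and 4 lower. Hepatocyte markers gave 4 higher and 4 lower of 9. Their part in the fall of Slc25a10 was not tested.

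The carriers that beta cells use to export citrate and oxoglutarate showed no called change. Slc25a1, the citrate carrier, stood at -0.56, -0.12 and -0.07 in adults and at 0.15, 0.12 and 0.01 at P10. Its difference was -0.40 (SE 0.21, limma adjusted p = 0.186). Slc25a11, the oxoglutarate-malate carrier of the malate-aspartate shuttle, stood at 0.74, 0.90 and 0.89 against 1.12, 1.09 and 1.01, a difference of -0.24 (SE 0.14, limma adjusted p = 0.216). In both genes every adult array lay below every P10 array, by a small margin. On slide 1, where 1 adult array meets the largely technical spread of the P10 arrays, the differences were -0.63 and -0.32. Slc25a21, which carries oxoadipate and other oxodicarboxylates, stood at 0.16 (limma adjusted p = 0.555).

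Enzymes that work with these carriers also moved in both directions, as did all probes, 21.3% higher and 31% lower. Of 6 tested NADH shuttle enzymes 2 were higher and 2 lower. The cytosolic malate dehydrogenase gene Mdh1 rose by 2.04 (SE 0.17, limma adjusted p = 0.00294, with 1 P10 spot left out), and the cytosolic glycerol phosphate dehydrogenase gene Gpd1 stood at -4.12 (SE 0.14, limma adjusted p = 0.00131). Of 9 genes of pyruvate entry and cycling 4 were higher and 2 lower. The malic enzyme gene Me2 was dim on every P10 array, and adults were at least 5.53-fold higher, with a limma adjusted p = 0.00972. The citrate synthase gene Cs stood at -1.40 (limma adjusted p = 0.0171).

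Amino acid and carnitine carriers gave 2 higher and 3 lower of 8 (21.3% and 31% of all probes were). Their median change was -0.68. Slc25a20 exchanges acylcarnitines for carnitine and so admits fatty acids to the matrix. It stood at 2.71, 2.92 and 2.92 in adults and at 1.85, 1.97 and 1.94 at P10. It rose by 0.89 (SE 0.15, limma adjusted p = 0.0134). Of 7 other carnitine shuttle genes tested 1 was higher (21.3% of all probes were), the inner membrane transferase gene Cpt2 at 0.90 (limma adjusted p = 0.0163), and 4 were lower (31% of all probes were), the carnitine uptake gene Slc22a5 at -1.99 (limma adjusted p = 0.00302) being the steepest. Slc25a44, a carrier of branched-chain amino acids, rose by 0.86 (SE 0.13, limma adjusted p = 0.0115).

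Lower in adults were carriers of ornithine and glycine. Slc25a38, which imports glycine for haem synthesis, stood at -2.65, -2.85 and -2.70 in adults and at -1.71, -1.63 and -1.83 at P10, a change of -0.96 (SE 0.15, limma adjusted p = 0.0109), and of -0.66 with median scaling (limma adjusted p = 0.0589), not called. The ornithine carriers Slc25a15 and Slc25a2 stood at -0.90 (SE 0.20, limma adjusted p = 0.0256) and -0.84 (SE 0.20, limma adjusted p = 0.0329), the latter at -0.52 with quantile normalization (limma adjusted p = 0.184) and no longer called. With normexp Slc25a15 stood at -0.77 (limma adjusted p = 0.1), not called. Of 12 tested enzymes of ornithine, urea and proline metabolism 7 were lower and 2 higher (31% and 21.3% of all probes were). Their median change was -1.13. The carbamoyl phosphate synthase gene Cps1, active in liver and small intestine, stood at -7.50 (SE 0.18, limma adjusted p = 0.00112), and the arginase gene Arg1 at 2.18 (limma adjusted p = 0.00178). The enterocyte markers given above fell on the same arrays, while hepatocyte markers gave 4 higher and 4 lower of 9. The part of such cells in the changes of these genes was not tested.

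The glutamate carriers Slc25a22 and Slc25a18 and the basic amino acid carrier Slc25a29 were not called in the main fit, with n = 2 per stage. Slc25a22, the form reported in beta cells, stood at 1.67, 1.84 and 1.92 in adults and at 1.73, 1.75 and 1.65 at P10, so the stages overlapped, and the difference was 0.08 (SE 0.15, limma adjusted p = 0.68). Slc25a18 ranged from -9.98 to -6.31 in adults, where 1 of 3 arrays was well above background, and from -6.45 to -4.55 at P10. Its difference of -2.81 had an SE of 1.00 (limma adjusted p = 0.0816). On slide 1, with its single adult array, it was -4.08. Slc25a29 stood at -0.52 (limma adjusted p = 0.113), at -0.03 with quantile normalization (limma adjusted p = 0.858) and at -0.76 on slide 1. With every array as its own replicate it was -0.43 and called (limma adjusted p = 0.0441). Of 5 tested enzymes of glutamate and glutamine 4 were lower and 1 higher, where 31% and 21.3% of all probes were, and the difference from the carriers was not tested. The glutaminase gene Gls2 stood at -3.67 (limma adjusted p = 0.00131).

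Carriers of cofactors, nucleotides and metals gave 2 lower and 0 higher of 8 tested (31% and 21.3% of all probes were). The other 6 did not pass the test. Both lower genes were mitoferrins, which bring iron into the matrix. Slc25a37, the form of red cell precursors, stood at -3.07, -3.88 and -4.02 in adults and at -1.92, -1.86 and -1.55 at P10, a change of -1.79 (SE 0.36, limma adjusted p = 0.0211) and of -1.35 on slide 1. With median scaling it was -1.49 and not called (limma adjusted p = 0.0551). Slc25a28, the form of other tissues, stood at -0.91 (SE 0.20, limma adjusted p = 0.0254). Erythroid markers did not move with them as a list. Of 7 tested 2 were higher, Hbb at 0.54 and Ahsp at 1.00, and 1 lower, Slc4a1 at -0.49. Not called were Hemgn at -0.78, Klf1 at -0.34, Epb42 at -0.01 and Alas2 at 0.27. The sums were 52.5 to 57.6 on adult and 36.6 to 37.5 on P10 arrays, nearly all of it Hbb signal. With quantile normalization 3 were higher and 0 lower. Of 9 iron-sulphur and haem genes of mitochondria 2 were higher, among them the scaffold gene Iscu at 1.19 (limma adjusted p = 0.00965), and 0 lower.

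The remaining cofactor and nucleotide carriers stood between -0.24 and 0.83. Slc25a16, linked to coenzyme A supply, stood at 0.83 (SE 0.29, limma adjusted p = 0.0796). Its adult arrays at 1.33, 0.69 and 0.60 all lay above the P10 arrays, with array 1 apart from the others. The peroxisomal carrier Slc25a17 stood at 0.42 (limma adjusted p = 0.123) and the pyrimidine nucleotide carrier Slc25a33 at 0.05 (limma adjusted p = 0.819). The glutathione carrier Slc25a39, of which the gene table lists 8 pseudogenes, stood at -0.24 (limma adjusted p = 0.298), and the coenzyme A carrier Slc25a42 at -0.04 (limma adjusted p = 0.827). Slc25a51, the NAD carrier, was flagged as an outlier spot on adult arrays 1 and 3 and was not tested. Its remaining values were 1.59 in adults and 1.81, 1.57 and 1.74 at P10.

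Among 4 members of other or less settled role 1 was higher and 2 lower (21.3% and 31% of all probes were). Slc25a34 stood at -6.33, -5.53 and -5.88 in adults and at -3.54, -3.65 and -3.59 at P10, a change of -2.42 (SE 0.26, limma adjusted p = 0.00475), or 5.37-fold lower. With normexp it was -1.51 (limma adjusted p = 0.0634). Slc25a35, also an orphan carrier, stood at -1.08, -1.57 and -1.57 against 0.00, 0.16 and 0.27, a change of -1.50 (SE 0.23, limma adjusted p = 0.0107). Both genes showed wide gaps between the stages. Slc25a46, an outer membrane protein with a part in mitochondrial shape, stood at 2.78, 2.71 and 2.70 against 1.90, 1.88 and 1.85, a rise of 0.87 (SE 0.13, limma adjusted p = 0.0104). Slc25a47, known from liver, stood at -0.25 (SE 0.40, limma adjusted p = 0.626), and adult and P10 arrays overlapped.

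**Figure D3:**
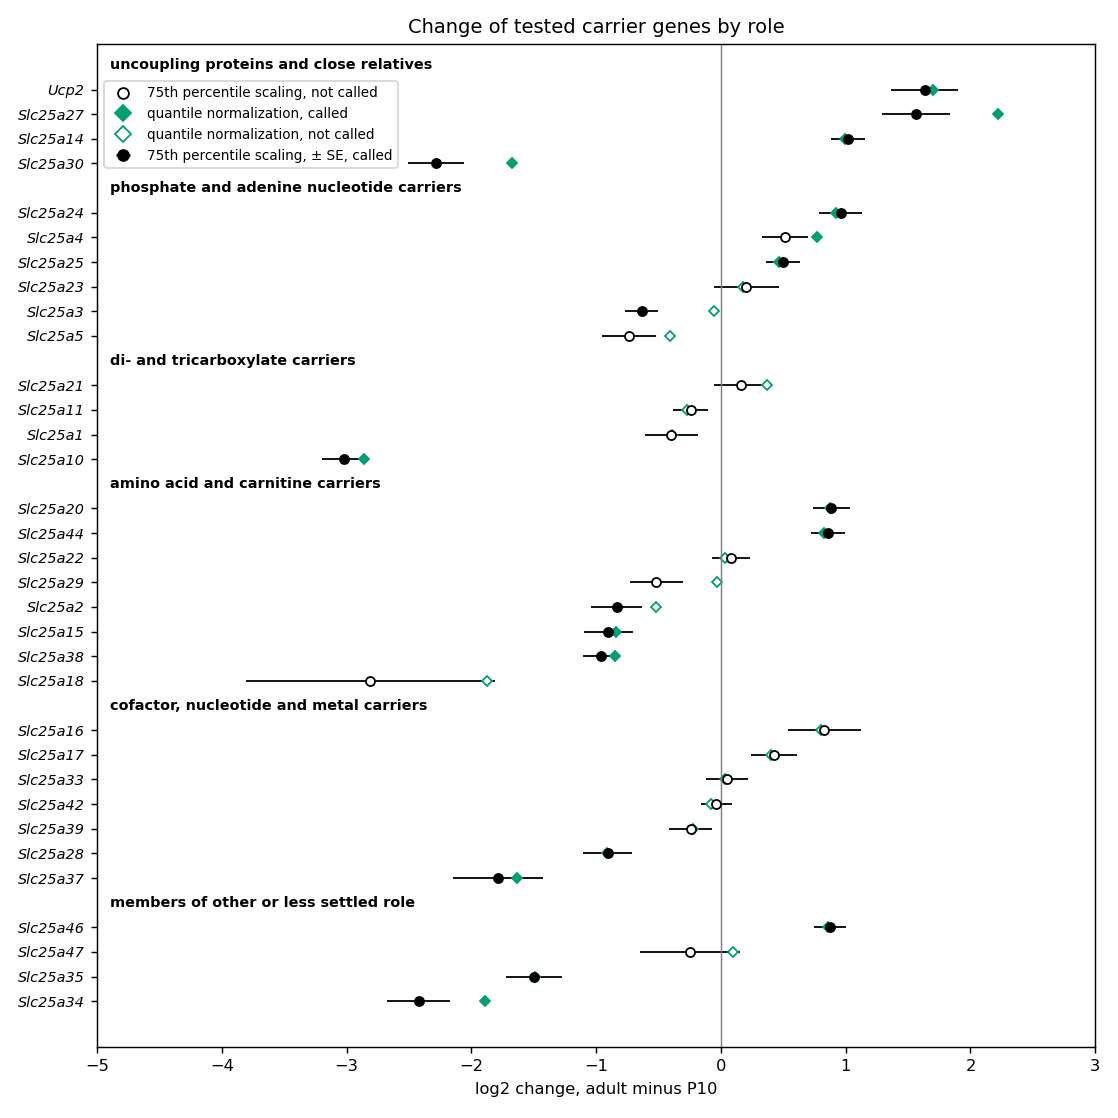
Log2 change, adult minus P10, of the tested carrier genes grouped by role, 1 gene not shown, with black circles and SE for the 75th percentile scaling and green diamonds for quantile normalization, filled where called. Slc25a10 lies farthest to the left at -3.02 and Ucp2 farthest to the right among the circles at 1.63, and for Slc25a2, Slc25a3 and Slc25a4 the call differs between the scalings.

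Over 11 lists of related genes, which hold enzymes and regulators as well as transporters, 93 genes were tested, 18 being higher (19.4%) and 31 lower (33.3%), against 21.3% and 31% of all probes. Among 12 genes of the machinery that imports carrier proteins, 1 was higher and 2 lower. Timm29, a part of the translocase that inserts carriers, stood at -1.92 (limma adjusted p = 0.00494) and Timm8b at 0.93 (limma adjusted p = 0.0132). Genes of the calcium uniporter and mitochondrial calcium exchange gave 1 higher and 1 lower of 5. The lower one was Letm1 at -0.67 (limma adjusted p = 0.0358). Outer membrane channels and other transporters gave 0 higher and 4 lower of 12, led by the sideroflexin gene Sfxn2 at -3.43 (limma adjusted p = 0.00359), which was well above background on 1 of 3 adult arrays. The voltage-dependent channels Vdac1, Vdac2 and Vdac3 stood between -0.14 and 0.13, and none was called, though Vdac3 stood at 0.49 and was called with quantile normalization (limma adjusted p = 0.0319).

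Regulators of mitochondrial mass and thyroid hormone genes also went both ways, as did all probes, 21.3% higher and 31% lower. Of 11 biogenesis regulators 3 were higher and 3 lower, from the receptor gene Esrrb at 4.37 (limma adjusted p = 0.00403) to the receptor gene Ppard at -1.96 (limma adjusted p = 0.00286), while Ppargc1a was at background throughout. Of 5 thyroid axis and sirtuin genes 1 was higher and 2 lower, with Sirt4 at 0.74 (limma adjusted p = 0.0144) and the thyroid receptor gene Thra at -2.88 (limma adjusted p = 0.00464). Of 7 beta cell markers measured 4 were higher and 1 lower in adults, where 21.3% and 31% of all probes were. With quantile normalization 5 were higher and 0 lower, against 28.4% and 28.7% of all probes. Each marker was well above background in both stages.

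**Figure D4:**
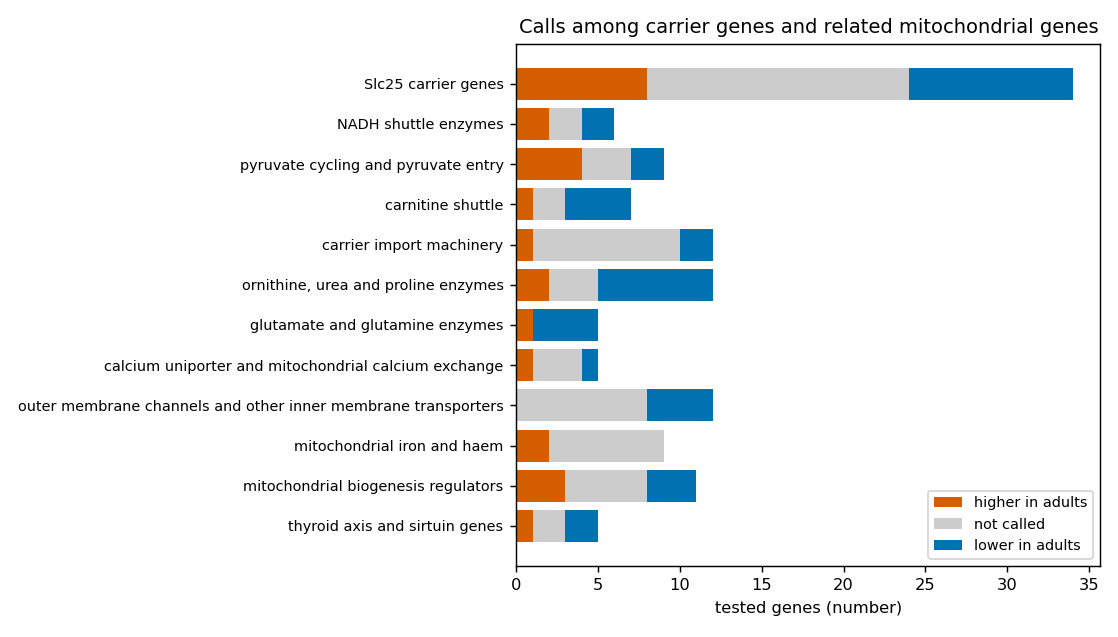
Number of tested genes called higher in adults (orange), not called (grey) and called lower (blue), for the carrier genes and 11 lists of related mitochondrial genes. The carrier bar holds 8, 16 and 10 genes, and the glutamate and glutamine list has 4 of 5 genes lower. Of all probes 21.3% were called higher and 31% lower.

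The 18 calls were set against the slides. Slide 2 held no P10 array, so a fit with the slide as a block, like one on slide 1 alone, sets adult array 1 against the P10 arrays and their largely technical spread. In these fits the changes of the 18 called carriers kept their sign. Among carriers not called with the main scaling, Slc25a5 stood at -0.49, Slc25a16 at 1.17, Slc25a17 at 0.61, Slc25a21 at 0.41 and Slc25a39 at -0.41 on slide 1. With 1 adult sample these fits are no independent check of the 18 calls or of any other change.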

How the data were processed

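Per the file headers, the deposited intensity values came from 1-colour Agilent scans, read with Feature Extraction 11.0.1.1, as processed signals that are background-corrected and spatially detrended within each array and carry no scaling across arrays. The authors' log2 values were deposited too, normalized by a method not given in the sources used here. For 99.99% of mRNA and 96.05% of lncRNA entries these lay within 0.05 of quantile-normalized processed signals.

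Control and outlier spots were left out, log2 spots of a probe were averaged, and the 75th percentile of each array was subtracted. A probe counted as well above background on an array if more than 50% of its spots were, and was tested if so on all 3 arrays of a stage and measured in each counted sample. Changes were fitted with limma 3.58.1, run under R 4.3.3, p-values were adjusted by Benjamini-Hochberg, and tested on simulated data. An at-least fold uses the lowest well-measured signal of each array in place of dimmer ones and is approximate. RefSeq accessions were matched without versions to the GRCr8 gene table. Array coordinates, on an older build, were not used. Slides were told from the scan identifiers.

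Members and gene lists were chosen with earlier results of these data known. Full values are given for the 6 largest called rises and falls and for carriers chosen by role, and for each list of related genes its largest called rise and fall. Other genes named, such as the Vdac genes, Slc25a16, Slc25a18, Slc25a23 and Slc25a51, were chosen after their values were seen. The labels pair no adult rat with a pool, and same-numbered arrays deviated together with r of -0.21, 0.08 and -0.24, so arrays were not paired. The values of a few genes that these rules name are not reported here.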

Additional observations from a re-analysis of the deposited data

How the results depend on the processing

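The call counts rest on how many samples are counted per stage and on the scaling. Without P10 array 3, P10 was a single counted sample, as adults were without adult array 1. The carrier median without P10 array 3 was -0.16, against -0.14 with all arrays. Leaving out 1 array at a time gave 1 to 11 carriers higher, 3 to 12 lower and medians of -0.16 to -0.091. It gave 6 to 25 related genes higher and 16 to 40 lower, and 1585 to 5888 probes higher and 2564 to 7597 lower, the fewest calls being without P10 array 3. Without adult array 1, 5888 probes were higher. With quantile normalization the carrier median was 0.00050, with the authors' normalized values -0.0013, with median scaling 0.16 (6 carriers lower) and with no filter on dim probes -0.24 (8599 probes lower). Normexp, run on spot medians after the files were seen since they hold no spot means, called 5 carriers higher and 6 lower, and 2128 and 2708 probes. The slide as a block gave 16 carriers lower, a median of -0.082, 30 related genes higher and 9052 probes lower. Slide 1 alone gave 16, -0.068, 29 and 8926, and with every array as a replicate, also added after seeing the data, 16, -0.082, 31 and 9027. With every array as its own replicate and the replicate number as a block, 8 carriers were higher and 11 lower, and all 18 calls remained. Without the block there were 12 and 13.

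Signs turned only in carriers not called with the main scaling. Slc25a47 stood at 0.10 with quantile normalization, 0.094 with the authors' values, 0.052 with median scaling, 0.26 with the slide as a block or on slide 1 with every array and 0.28 on slide 1. With median scaling Slc25a11 stood at 0.057, Slc25a39 at 0.057 and Slc25a42 at 0.26, and with normexp Slc25a21 at -0.0045. Slc25a22 and Slc25a23 stood at -0.039 and -0.12 with the slide as a block or slide 1 with every array, and at -0.025 and -0.11 on slide 1. Leaving out 1 array moved Slc25a21 between -0.081 and 0.20, Slc25a33 between -0.091 and 0.10 and Slc25a23 between -0.016 and 0.52. Averaging all probes of a gene changed no carrier, since each has 1 probe. The causes were not tested. Signal near background limits Slc25a18, Slc25a27, Slc25a30 and Slc25a34.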
